A study of Mus musculus with 15 samples.

Results

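The transcriptomes of Cebpa/Cebpb double-knockout (dKO) and wild-type (WT) cells of clone C1 were compared over all genes, which used 6 of the 15 RNA-seq libraries of the series, 3 of each genotype. Of 53379 genes in the table, 21666 had a read in these 6 libraries, and 12673 passed the filter of at least 10 normalized reads in at least 3 of the 15 libraries and were tested. All cells were mouse fetal liver cells transformed by MLL-ENL, a fusion oncogene of acute leukaemia, and were grown in medium with murine IL-3. The WT cells carried floxed but intact Cebpa and Cebpb, and their labels list no exogenous gene. The dKO cells are the outgrowth of 1 clone that survived deletion of both genes with TAT-Cre, a cell-permeable recombinase, and their labels list exogenous GFP, so that the deletion, the GFP vector and the selection of 1 surviving clone cannot be told apart. The labels do not say whether the WT line is the direct parent of this clone. The 3 libraries of each line came from RNA taken at different time points of 1 culture line, so p-values measure the spread within a line. Values are set beside those of dKO C1 cells given LAP*, a long isoform of rat C/EBPβ (3 libraries), and of WT and dKO cells of clone C2 (3 libraries each) only where this shows how clone C1 differs. The study took C1 and C2 from separate mice, and the 5 sex-linked genes summed to 3188 to 3943 normalized reads in WT C1 and 0 to 3 in WT C2 libraries, so that in a difference between the clones the animal, its sex chromosomes and the clone cannot be told apart.

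C/EBP proteins are basic leucine zipper transcription factors that bind DNA as dimers. In blood formation C/EBPα is needed for the step from multipotent to granulocyte-monocyte progenitors, C/EBPβ takes part in emergency granulopoiesis and in macrophage gene expression, and C/EBPε directs the late granule genes of neutrophils and eosinophils. GATA factors direct the megakaryocytic, erythroid, mast cell and eosinophil branches, and interferon-stimulated genes are driven by transcription factors that act downstream of the interferon receptors.

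Reads on genes numbered 9212237 to 13613500 in the 6 libraries, and a change of a few reads was not detectable at this depth. The first principal component (81.6% of the variance) separated dKO from WT libraries, and the second (7.22%) set WT replicate 3 apart from the other 5, so results that rest on that library are given without it. Genes of mature myeloid progenitors marked both lines. Elane, the neutrophil elastase of promyelocytes, had 34951, 37790.0 and 40211 normalized reads in WT cells and 62778, 69353 and 60210.0 in dKO cells. The defining genes of hepatocytes Alb, Ttr and Apoa1, of T cells Cd3e and Cd4, of erythroid cells Alas2 and of endothelium Cdh5 were at 0 in all 6 libraries, but other genes of the erythroid and T cell lists were expressed. The erythroid list summed to 8596 to 10463 normalized reads in WT and 5874 to 7608 in dKO libraries, the T and NK cell list to 1386 to 1418 and 2043 to 2468, and the B cell list to 228 to 235 and 41.5 to 48.2; their part in the results was not tested. The summed level of the 10 hepatocyte markers was 54.9 to 67.7 normalized reads in WT and 41.9 to 67.1 in dKO libraries; of the 3 tested, 1 rose and 1 fell, and of 2 endothelial or stromal genes 1 rose. In such bulk samples, fewer cells of a type and less RNA of a gene per cell cannot be told apart.

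Cebpa (chromosome 7, 35119293 to 35121928, mm10) had 1437, 964 and 903 normalized reads in the WT libraries and 0 in each dKO library. Cebpb (chromosome 2, 167688915 to 167690418) had 1559, 1411 and 1394 in WT cells and 0 in each dKO library. Both deleted genes thus matched the labels in all 6 libraries.

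Between dKO and WT cells of clone C1, 4686 of the 12673 genes differed, 37.0% of those tested (limma, adjusted p under 0.05). Of these, 2170 genes (17.1%) rose and 2516 (19.9%) fell, and the median change of all genes was -0.01 on the log2 scale. With quantile normalization, which set the median to 0.05, 2681 genes rose and 2052 fell, so that the rises were 56.6% of the calls in place of 46.3%. With changes limited to 2-fold or more in either direction, 778 genes (6.14%) rose and 971 (7.66%) fell. The dKO and WT libraries did not overlap for 2749 genes that were higher (21.7%) and 2977 that were lower (23.5%) in dKO cells. These shares are the background for the gene lists described below, which are given by how many of their tested members were called. A member at or near 0 in one group passed the filter only through a group in which it was higher, so that the counts and medians of lists with such members are a description and no support for their direction.

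**Figure D1:**
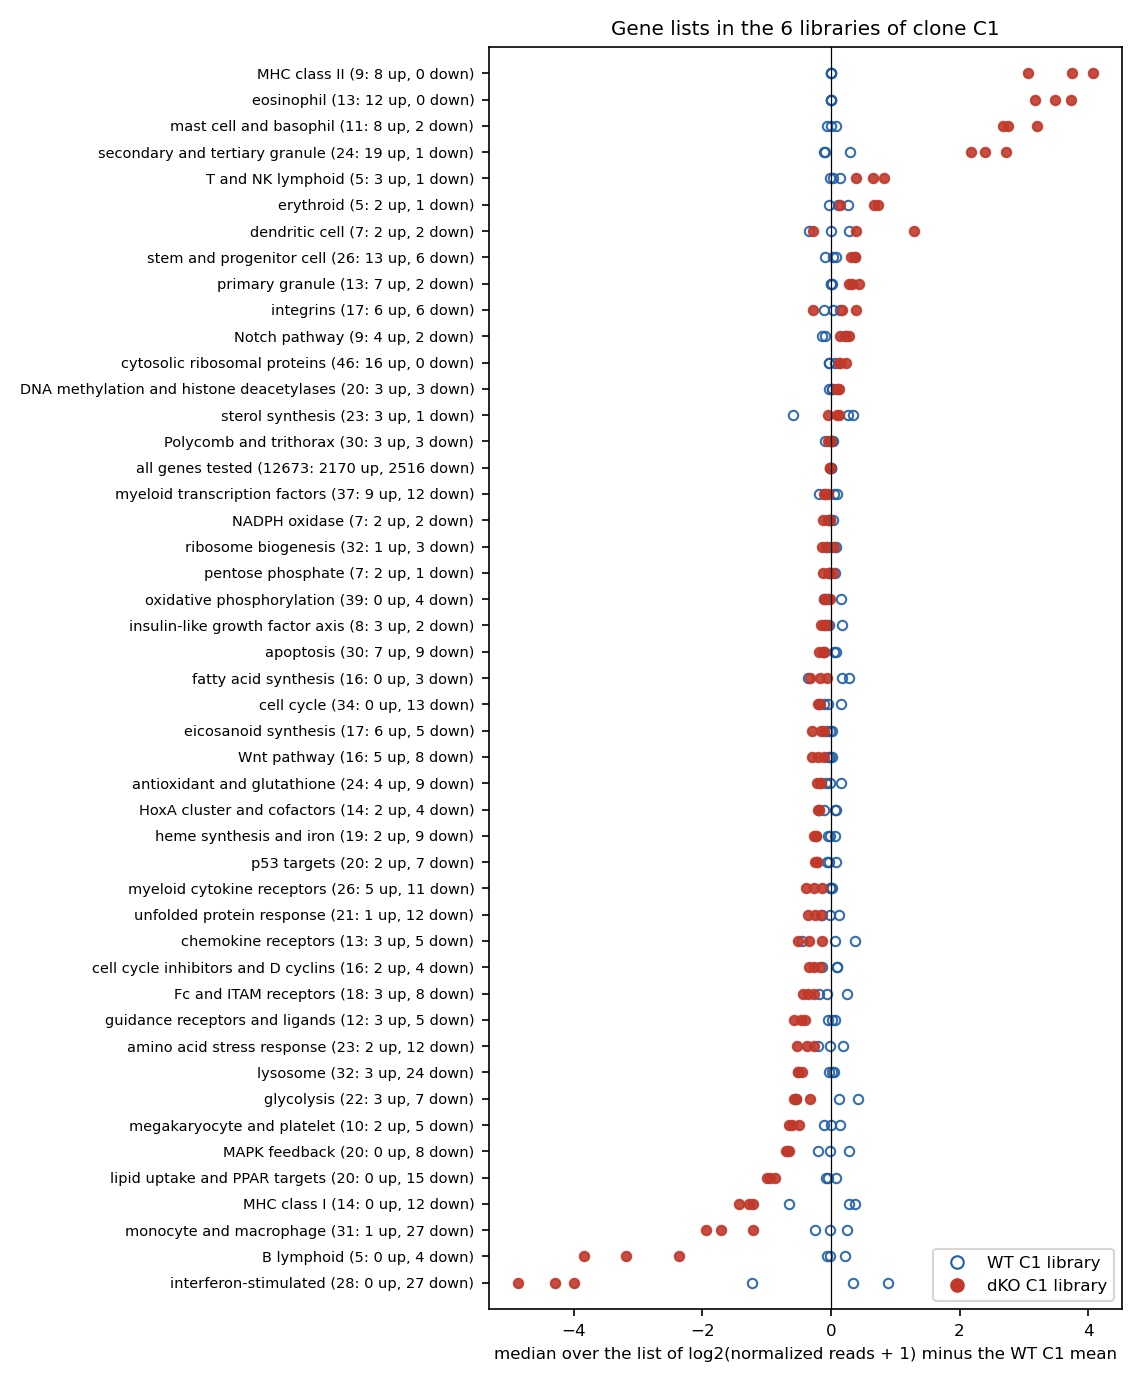
Median over each gene list of log2(normalized reads + 1) minus the WT C1 mean, for each of the 3 WT (open) and 3 dKO (filled) libraries of clone C1, with the number of members tested and called beside the name. The lists of MHC class II, eosinophil, mast cell and basophil, and secondary and tertiary granule genes lie highest in dKO cells and the interferon-stimulated list lowest, while the median of all genes tested lies close to 0 in every library.

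Genes of the eosinophil lineage made up 5 of the 12 largest rises. Of 15 members, 13 were tested, 5 of which were at 0 in all WT libraries; 12 rose and 0 fell (background 17.1% and 19.9%), with a median log2 fold change of 3.46 beside -0.01 over all genes. This median depended on the pseudocount of 1, and was 4.97 with 0.1 and 2.57 with 5. Il13ra1, a subunit of the IL-13 receptor, was the member that was not called. The groups did not overlap for the 12 called members, and 11 or 12 members were called with any 1 library left out.

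Epx, the eosinophil peroxidase of the specific granule (chromosome 11, 87864000 to 87875536), was listed at 0 in all 3 WT libraries. It had 3554, 2904 and 1609 normalized reads in the dKO libraries, at least 669.9-fold higher (adjusted p = 3.9e-11). Prg3, a paralogue of the major basic protein, had 0 in WT libraries and 900.4, 868 and 582 in dKO libraries, at least 195-fold higher. Folds against a group at 0 are lower bounds, taken against a floor of 3 reads per library, and cover counting error only. Il5ra, the receptor chain for the eosinophil growth factor IL-5, was at 0 in WT cells and at 68.0, 49.3 and 44.1 in dKO cells, at least 13.4-fold higher. Ear1, an eosinophil ribonuclease, had 0 in WT cells and 648, 441 and 178 in dKO cells, although its reads can be shared with near-identical Ear copies. The dKO library with the lowest Epx, replicate 3, was also the lowest for Prg3, Il5ra and Ear1. Siglecf, a surface lectin of mature eosinophils, was already present in WT cells at 107, 122 and 98.8 and rose to 465, 488 and 500.4 (log2 fold change 2.14 ± 0.20 (SE), adjusted p = 6.6e-07). Ccr3, the eotaxin receptor, was at most 2.1 normalized reads in every library of both groups and was not tested.

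In clone C2, 9 of the 13 eosinophil genes rose and 1 fell, with a median log2 fold change of 2.12, so most of the list was higher in dKO cells of both clones. The effect differed between the clones for 8 of the 13 eosinophil genes, and each of the 8 was more positive in clone C1 (interaction term, background 14.3%). Epx ranged from 92.1 to 149 in dKO C2 cells, and the difference of its log2 fold changes was 5.0 (adjusted p = 3.3e-05). Siglecf rose in both clones, with a difference of 0.03 (adjusted p = 0.96). In dKO C1 cells given LAP*, Epx had 185 to 425 normalized reads and Prg3 32.3 to 71.1.

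Mast cell and basophil genes rose with them. Of 24 members only 11 were tested, 3 of them at 0 in all WT libraries; 8 rose and 2 fell, with a median of 2.88, or 2.12 when genes at 0 in one group are set at their bound. Hdc, the histidine decarboxylase that makes histamine, had 38.8, 34.3 and 30.6 normalized reads in WT cells and 1318, 1305 and 1184 in dKO cells (log2 fold change 5.16 ± 0.33 (SE), adjusted p = 9.2e-09). Gzmb, granzyme B, was at 0 in WT cells and at 112, 116 and 76.8 in dKO cells, at least 25.4-fold higher. Cyp11a1, which starts steroid synthesis in mast cells, rose from 181, 372 and 136 to 1419, 1929 and 1342. Mitf, a transcription factor of mast cells, fell from 177, 219 and 122 to 87.2, 64.0 and 64.4, and Hpgds, the haematopoietic prostaglandin D synthase, fell by 2.06 on the log2 scale. The mast cell proteases Tpsb2, Tpsab1 and Mcpt4 were at 0 in all dKO libraries, and Fcer1a, the IgE-binding chain of the high-affinity receptor, was at most 1.05 normalized reads. The effect was more positive in clone C1 than in C2 for 7 of the 11 genes and more negative for 0; in clone C2, 3 rose and 3 fell (background there 17.4% and 20.1%).

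The stem and progenitor list moved both ways. Of 35 members 26 were tested, 3 of them at 0 in all WT and 1 in all dKO libraries; 13 rose and 6 fell, with a median of 0.40. Flt3, the receptor of lymphoid-primed progenitors, was at 0 in WT cells and at 34.0, 72.4 and 80.3 in dKO cells, at least 15.5-fold higher. Ikzf2, the Ikaros family factor Helios, was at 0 in WT cells and at 149, 91.2 and 85.6 in dKO cells, at least 27.1-fold higher. Gata2, a regulator of stem and mast cells (chromosome 6, 88193891 to 88207032), rose from 10.7, 13.5 and 5.09 to 259, 269.6 and 252 (log2 fold change 4.69 ± 0.24 (SE), adjusted p = 8.1e-10). Kit, the receptor for stem cell factor, rose from 967, 841 and 1188 to 2236, 2426 and 2143. Adgrg1, an adhesion receptor of stem cells, rose by 4.47 and Erg, an ETS factor, by 1.56 on the log2 scale. For each of these genes every dKO library lay above every WT library.

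Against this, Bcl11a, a zinc finger factor of lymphoid and fetal programmes (chromosome 11, 24078056 to 24174123), had 427, 435 and 372 normalized reads in WT cells and was listed at 0 in all 3 dKO libraries. It was at least 121-fold lower (adjusted p = 1.6e-09). In clone C2 Bcl11a was at most 1.05 in WT and 2.09 in dKO cells, so there was no fall to measure there. Lmo2, a bridging factor of stem cells, had a log2 fold change of -0.81 and Muc13, a surface mucin of progenitors, one of -1.50, and both passed the test. The number of progenitor genes that fell was 3 without WT replicate 2 or without dKO replicate 3. Spi1, Runx1 and Csf3r, which encode PU.1, AML1 and the G-CSF receptor, had overlapping groups and did not pass the test (log2 fold changes -0.04, 0.20 and -0.11).

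Neutrophil granule genes rose as well, and the lists for early and late granules are given apart, with no test between them. Of 13 primary granule genes, those of promyelocytes, 7 rose and 2 fell (median 0.35). Of 24 secondary and tertiary granule genes, those of myelocytes and later stages, 19 rose and 1 fell (median 2.43, or 2.08 with genes at their bound). All 19 had dKO libraries above the WT libraries, and 19 members rose with any 1 of the 6 libraries left out. Hp was the member that fell.

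Ltf, lactoferrin of the specific granule (chromosome 9, 111019271 to 111042767), had 37.5, 46.0 and 30.6 normalized reads in WT cells and 3292, 3655 and 3941 in dKO cells (log2 fold change 6.56 ± 0.31 (SE), adjusted p = 3.3e-10). Camp, the cathelicidin, rose from 549.9, 560.1 and 775 to 8281, 7001 and 7729 (3.62 ± 0.23, adjusted p = 7.7e-09). Ngp, neutrophilic granule protein (chromosome 9, 110419747 to 110423012), rose from 868, 1420.5 and 993 to 12052, 11007 and 12438 (3.46 ± 0.24, adjusted p = 2.5e-08). All 3 genes lie on chromosome 9, and for each the dKO libraries were above all WT libraries. Padi4, the arginine deiminase of neutrophil extracellular traps, rose by 4.56, Mmp25, a membrane-bound matrix protease, by 5.26, and Cxcr2, the chemokine receptor of neutrophil release, by 3.52 on the log2 scale. Ly6g, the surface marker of neutrophils, rose from 1.34, 5.41 and 4.08 to 57.8, 72.4 and 83.8, although Ly6 genes can share reads. S100a8 and S100a9, the 2 chains of calprotectin, rose by 1.45 and 1.90.

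Not all of the neutrophil programme moved this way. Hp, which encodes haptoglobin, fell from 16539, 18012 and 18502 to 3582, 3739 and 3574 (log2 fold change -2.28 ± 0.08 (SE), adjusted p = 1.9e-11). Lcn2, lipocalin 2, had 5709, 8588 and 4286 in WT cells and 6109, 6517 and 7352 in dKO cells, and these overlapped (adjusted p = 0.70). Chil3 had overlapping groups as well (adjusted p = 0.50). Ctsc, the protease that activates the granule serine proteases, fell from 6710.1, 7387 and 3705 to 1369, 1344 and 1526. Prss57, another serine protease of the primary granule, rose by 2.14 on the log2 scale.

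Cebpe, the C/EBP member that acts in late granulopoiesis (chromosome 14, 54710360 to 54712174), rose from 380.0, 472 and 371 to 2272, 2022 and 2027 in clone C1. Its rise did not pass the test of a difference between the clones (0.28 on the log2 scale, adjusted p = 0.17), whereas the dKO effect differed for 18 of the 24 secondary and tertiary granule genes, 15 of them more positive in C1. In clone C2, 7 of the 24 rose and 6 fell. The effect on Ltf was more positive in C1 by a log2 value of 5.63 (adjusted p = 2.6e-07), and Cd177, a surface protein of neutrophils, rose by 2.82 in C1 and fell by 2.33 in C2 (adjusted p of the difference = 4.2e-08). In dKO C1 cells given LAP*, Ltf had 319 to 437 normalized reads and Ngp 2644 to 3024.

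The promoters of Ltf and Ngp are printed because both genes rose while Cebpa and Cebpb were lost, and both hold the letters TTGCNNAA, a simplified form of the C/EBP motif, shown in capitals on either strand. The sequences are from RefSeq (GRCm38.p6), and each spans the 300 bases around the gene start. That of Ltf is chr9:111019042-111019341 and that of Ngp chr9:110419558-110419857, both on the plus strand. Positions are counted from the RefSeq gene start, at 111019292 for Ltf and 110419808 for Ngp, which lies further along than the GENCODE start given above. The motif begins at -75 in Ltf and at -138 and -11 in Ngp, so that the last of these lies past the GENCODE start of Ngp.
Ltf promoter: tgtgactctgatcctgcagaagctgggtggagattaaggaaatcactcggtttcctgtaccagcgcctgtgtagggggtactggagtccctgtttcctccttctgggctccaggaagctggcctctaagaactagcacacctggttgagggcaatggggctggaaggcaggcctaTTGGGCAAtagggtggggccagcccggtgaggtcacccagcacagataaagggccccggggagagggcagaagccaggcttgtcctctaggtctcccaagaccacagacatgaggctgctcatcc
Ngp promoter: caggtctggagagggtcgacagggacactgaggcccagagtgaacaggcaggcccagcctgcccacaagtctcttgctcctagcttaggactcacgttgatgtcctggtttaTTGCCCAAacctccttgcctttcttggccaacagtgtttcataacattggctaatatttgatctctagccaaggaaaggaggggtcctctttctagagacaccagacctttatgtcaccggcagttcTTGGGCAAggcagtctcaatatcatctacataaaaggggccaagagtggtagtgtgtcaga
The motif was found in 8 of the 21 secondary and tertiary granule promoters in that table (38.1%), in 3 of 10 eosinophil promoters (30.0%) and in 10.3% of the promoters of 9415 genes tested. It was found in 2 of 25 monocyte and macrophage promoters (8%) and 1 of 12 MHC class I promoters (8.33%). For interferon-stimulated genes it was 1 of 22 (4.55%) and for MHC class II genes 0 of 6. A match describes letters only; binding was not measured here.

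**Figure D2:**
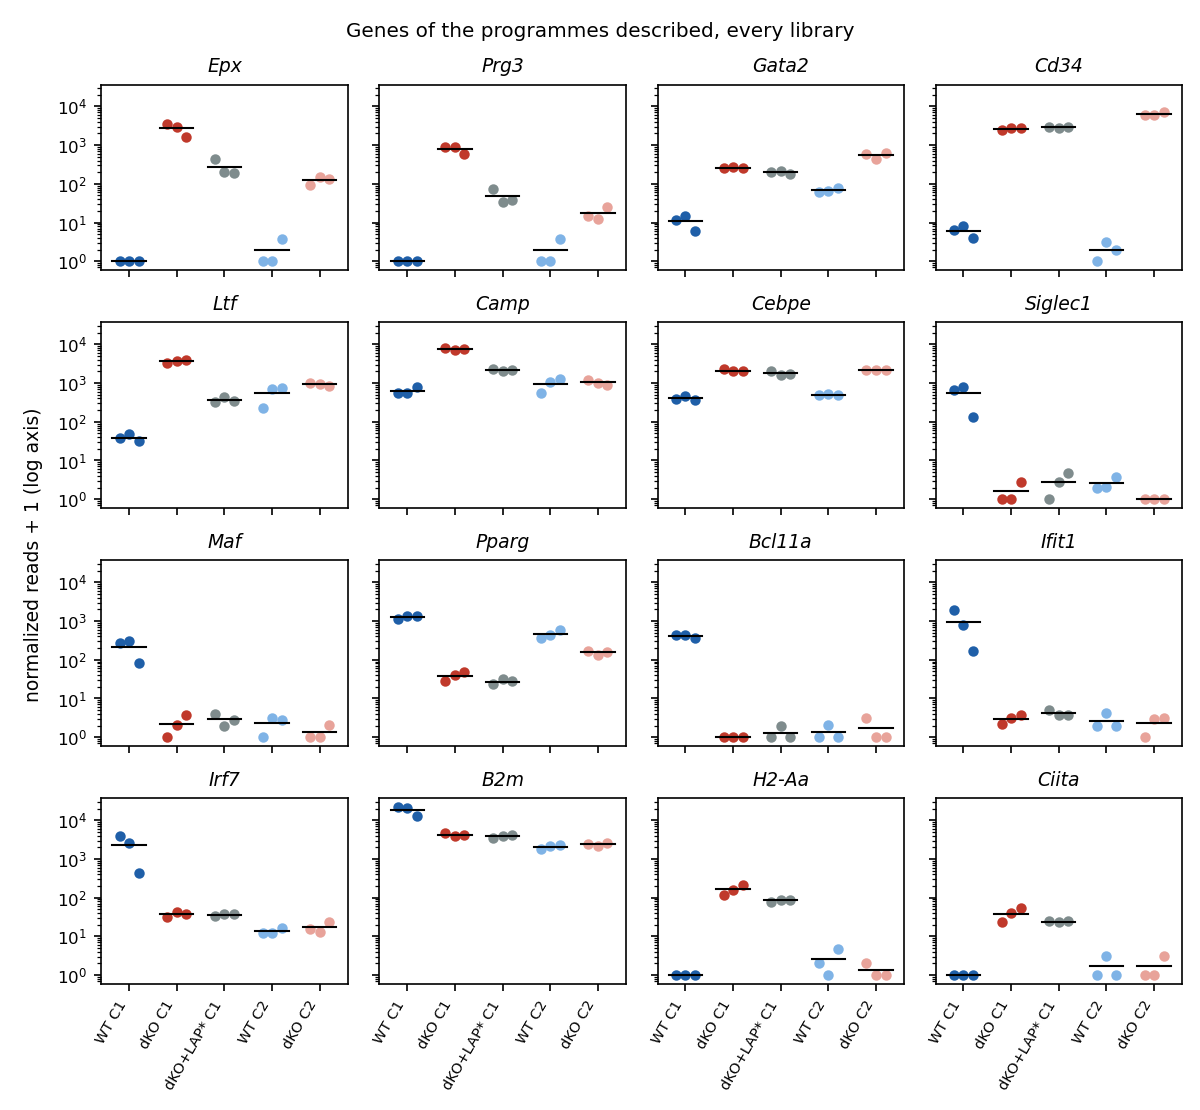
Normalized reads + 1 on a log axis for 16 genes in all 15 libraries, 1 point per library, with a line at the mean of each group of 3. In clone C1, Epx, Prg3, Gata2, Cd34, Ltf, Camp, Cebpe, H2-Aa and Ciita lie higher in dKO than in WT cells without overlap, and Siglec1, Maf, Pparg, Bcl11a, Ifit1, Irf7 and B2m lie lower, while in clone C2 Bcl11a and Ifit1 are near the floor in both groups.

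Monocyte and macrophage genes fell. Of 37 members 31 were tested; 27 fell and 1 rose, with a median log2 fold change of -1.58, and 25 fell without WT replicate 3. Siglec1, the sialoadhesin of tissue macrophages (chromosome 2, 131069220 to 131086765), had 681, 800.0 and 131 normalized reads in WT cells and 0, 0 and 1.77 in dKO cells. The ratio of its reads was 798, with a counting interval of 221 to 6595. Maf, a transcription factor that maintains macrophages, fell from 264, 301 and 83.5 to 0, 1.05 and 2.65. In WT replicate 3, both genes were lower than in the other WT libraries and still above every dKO library.

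Marco, a scavenger receptor, had 58.9, 57.7 and 118 normalized reads in WT cells and 0 in all dKO libraries, at least 23-fold lower. Klf4, a factor of monocyte differentiation, fell from 74.9, 122 and 175 to 6.80, 12.6 and 13.2 (log2 fold change -3.36 ± 0.44 (SE), adjusted p = 1.7e-05). Irf8, the interferon regulatory factor that commits progenitors to monocytes (chromosome 8, 120736358 to 120756694), fell from 999, 849.6 and 806 to 239, 299 and 358 (-1.58 ± 0.18, adjusted p = 3.7e-06). Gpnmb, Mpeg1 and Vcan, a lysosomal glycoprotein, a pore-forming protein and a matrix proteoglycan of monocytic cells, fell, with log2 fold changes of -3.91, -2.28 and -3.98. Fcgr1, the high-affinity IgG receptor, fell from 1199, 976 and 541 to 113, 126 and 146. No dKO library reached the lowest WT library for any of these genes.

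The 1 member that rose was Itgam, which encodes CD11b of both monocytes and granulocytes (0.70 ± 0.20 on the log2 scale, adjusted p = 0.013), and this call was lost without WT replicate 3 (0.50, adjusted p = 0.061). Without WT replicate 2, 2 members rose. Trem2, Cx3cr1 and Apoe did not pass the test, but Apoe did without WT replicate 2 (0.81, adjusted p = 0.022). In clone C2, 12 of the 31 genes fell and 4 rose, and the effect differed between the clones for 17 (14 more negative in C1). The list was lower in WT C2 than in dKO C1 cells, with library medians of -3.54 to -2.62 against -1.95 to -1.22 relative to the WT C1 mean, and Siglec1 and Maf were at most 2.75 and 2.10 normalized reads in WT C2 cells. Fcgr1 was the extreme case, since it rose by 4.74 in clone C2 (difference -7.48, adjusted p = 2.1e-09). Gpnmb fell by 4.13 in C2, which did not differ from C1 by the test (adjusted p = 0.86).

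Genes of the lysosome and of lipid handling, which phagocytes use to digest what they take up, fell as well. Of 32 lysosomal genes, 24 fell and 3 rose (median -0.47). Psap, the precursor of the saposins, fell from 19515, 24621 and 21603 to 4504, 5406 and 5853 (log2 fold change -2.06 ± 0.12 (SE), adjusted p = 2.1e-09). The cathepsins Ctsb and Ctsl fell (-1.55 and -2.28), as did Lamp1, a membrane protein of the lysosome (-0.93). Cd63, also a granule membrane protein of eosinophils and mast cells, was among those that rose (0.84). The regulators Tfeb and Mcoln1 did not pass the test (-0.05 and -0.08).

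Of 20 genes of lipid uptake and PPAR targets, 15 fell and 0 rose (median -0.99). Pparg, the nuclear receptor of alveolar macrophages and fat cells (chromosome 6, 115360951 to 115490399), fell from 1147, 1356 and 1339 to 27.2, 38.8 and 47.7 (log2 fold change -5.07 ± 0.20 (SE), adjusted p = 3.7e-11). Plin2, which coats lipid droplets, fell from 2933, 3858 and 2665 to 972, 979 and 966. The cholesterol exporters Abca1 and Abcg1 fell (-3.58 and -1.84), as did the fatty acid carrier Fabp5 (-1.14) and Cpt1a, which admits fatty acids to mitochondria (-1.02). Cd36 and Fabp4, other targets of this receptor, were at most 3.61 normalized reads in WT cells and at 0 in dKO cells, and were not tested. Pparg fell more in clone C1 than in C2 (difference -3.54, adjusted p = 3.0e-07), while Plin2 fell by 1.67 in C2 (difference -0.01, adjusted p = 0.97).

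Interferon-stimulated genes fell with the largest share called in 1 direction among the 49 lists. Of 28 tested, 27 fell and 0 rose, with a median log2 fold change of -4.61; without WT replicate 3, again 27 fell, with a median of -5.04. Irf1, itself a regulator of interferon genes, was not called (adjusted p = 0.26). Ifit1, which binds foreign RNA (chromosome 19, 34640871 to 34650009), had 1900.0, 799 and 172 normalized reads in the WT libraries and 1.13, 2.10 and 2.65 in the dKO libraries (adjusted p = 2.4e-07). Isg15, a ubiquitin-like modifier (chromosome 4, 156199424 to 156200818), fell from 2038, 1081 and 171 to 7.93, 7.34 and 4.41 (adjusted p = 4.9e-07). Irf7, the factor that amplifies the interferon response, fell from 3991, 2627 and 432 to 30.6, 42.0 and 36.2. The WT libraries spread widely, with replicate 1 highest and replicate 3 lowest for all 3 genes, and WT replicate 3 stayed above each dKO library.

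Other regulators of these genes fell as well. The log2 fold changes were -1.21 for Stat2 and -2.58 for Irf9, and -0.31 and -0.55 for the receptor chains Ifnar1 and Ifnar2, all past the test. Ifnar1 was not called without WT replicate 1 (-0.28), dKO replicate 1 (-0.27) or dKO replicate 2 (-0.23). Ifit2 was called (-1.26, adjusted p = 0.020) although its groups overlapped, with 257 normalized reads in WT replicate 3 and 289 in dKO replicate 3, and the call was lost without WT replicate 1 (-0.69), WT replicate 2 (-1.21) or dKO replicate 2 (-1.10). Rsad2, the antiviral protein viperin on chromosome 12, fell from 2040.5, 928 and 147 to 4.53, 1.05 and 3.53.

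This fall was tested against that in clone C2. For 25 of the 28 genes the dKO effect differed between the clones, all more negative in C1 (background 15.1%), and in clone C2, 1 fell and 2 rose. The list was already as low in WT C2 as in dKO C1 cells. Library medians were -5.216 to -4.644 against -4.873 to -4.003 relative to the WT C1 mean. This left little room for a fall in clone C2, so the count of 25 is no measure of a clone-specific dKO effect. Ifit1 and Isg15 were low in both groups of clone C2: Ifit1 had 0.92 to 3.15 normalized reads in WT C2 cells and 0 to 2.15 in dKO C2 cells, and Isg15 8.96 to 15.7 and 7.78 to 10.7. The difference did not pass the test for Ifit2, Irf1 and Gbp3; Gbp3, a guanylate-binding protein, had log2 fold changes of -4.22 in C1 and -4.10 in C2 (adjusted p of the difference = 0.88). In dKO C1 cells given LAP*, Ifit1 had 2.74 to 4.06 normalized reads and Isg15 2.77 to 4.56.

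MHC class I genes, which present peptides to T cells and are also targets of interferon, fell in 12 of 14 cases and rose in 0, with a median of -1.30. B2m, the light chain (chromosome 2, 122147686 to 122153083), fell from 22335, 21022 and 13089 to 4619.6, 3840.0 and 4087 (log2 fold change -2.13 ± 0.16 (SE), adjusted p = 4.0e-08). Nlrc5, the transactivator of these genes, fell from 545, 410.4 and 123 to 3.40, 1.05 and 4.41, and Psmb8 and Psmb9 of the immunoproteasome fell (-1.09 and -1.22). H2-K1 and H2-D1, the heavy chains, fell (-1.75 and -1.34), with reads that can be shared between class I genes. Tap2 and H2-T23 were not called, although H2-T23 was without WT replicate 3 (-0.93, adjusted p = 0.00027). The effect was more negative in C1 than in C2 for 11 of the 14, and B2m stood at 1819 to 2254 normalized reads in WT C2 and 2115 to 2540 in dKO C2 cells. This list too was about as low in WT C2 as in dKO C1 cells, with library medians of -1.348 to -1.134 against -1.435 to -1.217. The count of 11 thus carries the same limit.

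Promoters of Ifit1, Isg15 and B2m are printed because these genes fell together, and each holds the interferon-stimulated response element, searched on both strands as GAAA, any 2 bases and GAAA, and shown in capitals. They span chr19:34640639-34640938 (plus strand) for Ifit1, chr4:156200769-156201068 (minus strand) for Isg15 and chr2:122147437-122147736 (plus strand) for B2m, from RefSeq (GRCm38.p6). Counted from the RefSeq starts (34640889 for Ifit1, 156200818 for Isg15 and 122147687 for B2m), Ifit1 has 2 matches, which begin at -104 and -85, Isg15 has 3 that overlap, at -78, -72 and -66, and B2m has 1 at -139.
Ifit1 promoter: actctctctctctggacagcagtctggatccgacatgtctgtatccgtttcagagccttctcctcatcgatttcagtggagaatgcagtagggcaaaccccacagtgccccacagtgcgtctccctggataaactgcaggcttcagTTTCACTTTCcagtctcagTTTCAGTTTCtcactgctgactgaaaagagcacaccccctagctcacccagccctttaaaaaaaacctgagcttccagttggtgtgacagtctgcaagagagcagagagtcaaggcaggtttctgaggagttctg
Isg15 promoter: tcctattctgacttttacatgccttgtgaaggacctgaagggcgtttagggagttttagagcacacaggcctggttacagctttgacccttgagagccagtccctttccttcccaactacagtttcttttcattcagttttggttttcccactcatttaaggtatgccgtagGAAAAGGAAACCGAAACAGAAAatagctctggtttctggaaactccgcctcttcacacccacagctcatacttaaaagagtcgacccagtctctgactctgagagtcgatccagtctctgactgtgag
B2m promoter: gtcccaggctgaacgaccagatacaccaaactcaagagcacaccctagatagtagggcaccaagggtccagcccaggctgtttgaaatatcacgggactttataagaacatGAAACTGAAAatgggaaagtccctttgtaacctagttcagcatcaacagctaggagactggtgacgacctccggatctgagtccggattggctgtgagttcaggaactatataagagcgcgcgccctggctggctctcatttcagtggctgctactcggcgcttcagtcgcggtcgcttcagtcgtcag
The element was found in 14 of the 22 interferon-stimulated genes with a promoter in that table (63.6%), in 3 of 12 MHC class I genes (25%), in 0 of 21 secondary and tertiary granule genes and in 3.97% of the promoters of 9415 genes tested.

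MHC class II genes, which are read out by B cells, dendritic cells and activated macrophages, moved the other way. Of 10 members 9 were tested, 4 of them at 0 in all WT libraries; 8 rose and 0 fell, with a median of 3.63, or 3.24 with genes at their bound. H2-Aa, the alpha chain (chromosome 17, 34282744 to 34287823), was at 0 in WT cells and at 116, 159 and 215 normalized reads in dKO cells, at least 40.7-fold higher (adjusted p = 7.4e-09). H2-Ab1 and H2-Eb1 were also at 0 in WT cells and at least 18.0-fold and 19.1-fold higher. Ciita, the master regulator of these genes (chromosome 16, 10480059 to 10528418), was at 0 in WT cells and at 22.6, 38.8 and 52.1 in dKO cells, at least 9.43-fold higher. Cd74, the invariant chain, rose from 36.1, 96.5 and 51.0 to 480.2, 769.9 and 968. In each case dKO replicate 1 was the lowest and replicate 3 the highest of the dKO libraries, except for H2-Ab1, where replicate 2 was highest, and the groups did not overlap.

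In clone C2, 3 of the 9 class II genes rose and 1 fell, and the effect differed between the clones for 8, of which 7 were more positive in C1. H2-Aa was at most 3.66 normalized reads in WT C2 and 1.05 in dKO C2 cells (adjusted p of the difference = 3.9e-07), and Ciita at most 2.10 and 2.15. Cd74 rose in both clones, and its difference did not pass the test (adjusted p = 0.27). Of 5 B lymphoid genes tested 4 fell and 0 rose, and of 7 dendritic cell genes 2 rose and 2 fell (median 0.41). Of 31 monocyte and macrophage genes 27 fell and 1 rose. These lists stand for cells that can carry class II, and the part of such cells in the class II rise was not tested. The dendritic genes Siglech, Zbtb46 and Cd209a were at 0 in all 6 libraries. Cd79b of the B cell receptor fell from 99.0, 87.5 and 116 to 2.27, 0 and 0, whereas Itgax, the CD11c of dendritic cells and macrophages, rose by 4.31 on the log2 scale.

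**Figure D3:**
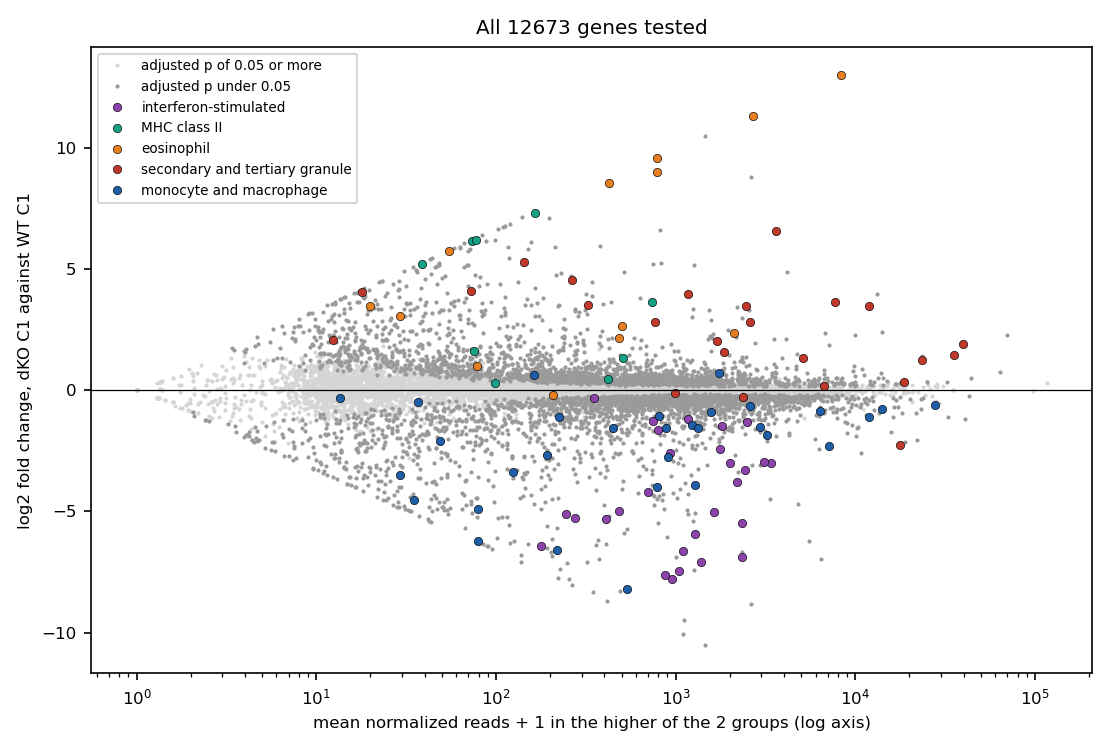
Log2 fold change of dKO against WT cells of clone C1 plotted against the mean normalized reads + 1 in the higher group on a log axis, 1 point per gene tested, with members of 5 lists in colour. Eosinophil, granule and MHC class II genes lie mostly above 0 and interferon-stimulated and macrophage genes mostly below it, with Ifit1 at -7.79.

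Receptors and adhesion molecules moved in both directions. Of 26 cytokine receptors, 5 rose (8 with quantile normalization) and 11 fell. Il6st, the gp130 chain shared by receptors of the IL-6 family, fell from 282, 305 and 259 to 12.5, 15.7 and 38.0 (log2 fold change -3.78 ± 0.32 (SE), adjusted p = 1.7e-07). Csf2rb, the common beta chain through which IL-3 signals, did not pass the test at 5331, 6374 and 5682 against 6163, 7233 and 6918 (adjusted p = 0.082), and did so without WT replicate 2 (0.30) or dKO replicate 1 (0.29). Of 13 chemoattractant receptors, 3 rose and 5 fell (3 without WT replicate 2); Fpr1, the formyl peptide receptor, fell from 939, 1097 and 509 to 27.2, 36.7 and 68.0. Of 17 integrins, 6 rose and 6 fell. Itgb7, which guides mast cell progenitors and lymphocytes to the gut, rose from 13.4, 47.8 and 6.11 to 348, 520.2 and 679, and Itga2b, the CD41 of megakaryocytes and early progenitors, from 2.68, 4.51 and 1.02 to 217, 264 and 156. Among megakaryocyte genes as a list 5 of 10 fell (3 with a pseudocount of 0.1) and 2 rose, among them the platelet chemokines Pf4 and Ppbp (-1.51 and -2.53), of which Pf4 was not called without WT replicate 2 (-1.25) or dKO replicate 2 (-1.28).

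Of 12 semaphorin and ephrin genes tested, 3 rose and 5 fell. Nrp2, a coreceptor for semaphorins, fell from 1367, 1528 and 1593 to 129, 194 and 217 (log2 fold change -3.08 ± 0.21 (SE), adjusted p = 1.3e-08), and Plxna1, a plexin, from 116, 136 and 159 to 0, 0 and 0.88. Both fell in clone C2 as well, Nrp2 by more than in C1 (difference 2.22, adjusted p = 4.0e-05) and Plxna1 by less (-1.89, adjusted p = 0.019). Of 16 Wnt pathway genes 5 rose (3 without WT replicate 1 or dKO replicate 2) and 8 fell; Tcf7l2, a nuclear effector, fell by 3.64. Of 9 Notch genes 4 rose and 2 fell, or 1 without WT replicate 1, WT replicate 2 or any dKO replicate; Nrarp, a feedback target of Notch, rose from 0, 0.90 and 5.09 to 52.1, 47.2 and 38.8. In the insulin-like growth factor axis, Igfbp4, a binding protein, rose from 1805, 1872 and 2543 to 10091, 10355 and 9542.

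Feedback inhibitors of the MAPK cascade fell in 8 of 20 cases and rose in 0 (median -0.68). Dusp6, a phosphatase of ERK, fell from 650.3, 942 and 535 to 239, 229.7 and 231 (log2 fold change -1.56 ± 0.20 (SE), adjusted p = 1.3e-05), and Spry2 had one of -0.81. The immediate early genes Fos, Egr1 and Junb were not called (-0.73, -0.69 and 0.01), but Egr1 was without WT replicate 3 (-1.29, adjusted p = 0.026).

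Cell cycle genes moved by small amounts. Of 34 tested, 13 fell and 0 rose, with a median of -0.17 (-0.10 without WT replicate 3 and -0.07 with quantile normalization); the mitotic kinase Bub1 and the topoisomerase Top2a fell, by log2 fold changes of -0.47 and -0.35. Without WT replicate 3 or dKO replicate 3, 8 fell and 1 rose, and with quantile normalization 7 fell and 2 rose. The replication helicase genes Mcm2 to Mcm7 and Pcna did not pass the test, although Mcm7 did without WT replicate 3 (0.28, adjusted p = 0.037), and Mki67, the proliferation antigen, had a change of -0.14. Among inhibitors and D cyclins, Cdkn2a rose from 9.37, 11.7 and 11.2 to 87.2, 75.5 and 61.8 (2.68 ± 0.27, adjusted p = 1.4e-06) and Ccnd2 fell by 0.76, while Cdkn1a, a target of p53, did not pass the test (adjusted p = 0.18), which it did without WT replicate 3 (-0.66, adjusted p = 0.0064). Myc was not called (-0.03, adjusted p = 0.88).

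Of 30 apoptosis genes, 7 rose (4 without dKO replicate 3) and 9 fell, shares of 23.3% and 30% beside 17.1% and 19.9% over all genes. The list thus moved both ways, and the genes named here do not give it a direction. The death receptors Fas and Tnfrsf10b fell (log2 fold changes -1.71 and -2.65), and Bcl2, which protects from apoptosis, rose from 45.5, 54.1 and 41.8 to 106, 112 and 83.8. Bcl2 rose more in clone C2 (difference -1.49, adjusted p = 0.00031). Of 20 p53 targets, 2 rose (1 without dKO replicate 3) and 7 fell (4 without WT replicate 1).

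Several metabolic lists depended on single libraries. Of 22 glycolysis genes 7 fell and 3 rose, but the number that fell was 1 without WT replicate 1, 2 without WT replicate 2, 3 without dKO replicate 3 and 14 without WT replicate 3. Slc2a3, a neuronal-type glucose transporter, rose from 48.2, 61.3 and 28.5 to 592, 645 and 656 (log2 fold change 3.81 ± 0.30 (SE), adjusted p = 7.1e-08). Of 23 sterol synthesis genes 3 rose (1 without dKO replicate 2 and 0 in a fit to the groups compared alone) and 1 fell, against 1 and 9 without WT replicate 3. Of 16 fatty acid synthesis genes 3 fell and 0 rose, against 9 that fell without WT replicate 3 and 2 that rose without WT replicate 1 or 2. Of 39 oxidative phosphorylation subunits, 4 fell and 0 rose, whereas 2 fell without dKO replicate 1 and 2 rose without WT replicate 3. Of 46 cytosolic ribosomal proteins, 16 rose and 0 fell (median 0.18), a count that ran from 5 without WT replicate 1 and 6 without dKO replicate 2 to 19 without another library, and that was 35 with quantile normalization. Without WT replicate 2 it was 7.

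Iron and oxidant defence genes fell more often than they rose. Of 19 heme and iron genes, 9 fell and 2 rose (1 without dKO replicate 2); Fth1, the ferritin heavy chain, fell from 13607, 16284 and 17378 to 4619.6, 4889 and 4844 (log2 fold change -1.71 ± 0.10 (SE), adjusted p = 2.5e-09), and Hmox1, which degrades heme, had one of -2.58. Of 24 antioxidant genes, 9 fell and 4 rose: Sod2, the mitochondrial superoxide dismutase, fell from 3189.8, 3675 and 3968 to 971, 972 and 979.6, and Nqo1, a quinone reductase, rose from 12, 18 and 33.6 to 344, 299 and 303. Cybb, the catalytic subunit of the phagocyte NADPH oxidase, fell from 10198, 11542 and 10618 to 1688, 1620.5 and 1996, while its partner Ncf1 did not pass the test (adjusted p = 0.16).

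Of 23 genes of the amino acid stress response, 12 fell and 2 rose (1 without WT replicate 3 or dKO replicate 3). Of 21 unfolded protein response genes 12 fell (7 without WT replicate 1) and 1 rose (2 without WT replicate 3). Phgdh, the first enzyme of serine synthesis, fell from 4195, 3907 and 4750.4 to 1182, 1397 and 1228, whereas Asns and Atf4, an enzyme and the factor of the same response, were not called (adjusted p = 0.69 and 0.63). In eicosanoid synthesis, 6 of 17 genes rose and 5 fell (3 without WT replicate 1 or without dKO replicate 3). The leukotriene enzymes Alox5 and Ltc4s rose by 3.00 and 2.77 on the log2 scale, Alox5 from 119, 221 and 134 to 1237, 1285 and 1168.

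The shares of chromatin regulators called were near or below the background of 17.1% and 19.9% and are no result about these genes. Of 30 Polycomb and trithorax genes 3 rose and 3 fell, against 5 and 5 without dKO replicate 1 and 5 rises without WT replicate 2. Of 20 DNA methylation and deacetylase genes 3 rose and 3 fell, with 1 fall without WT replicate 2 and 4 without WT replicate 1 or dKO replicate 1. Phf19, a Polycomb accessory factor, rose by 0.94 and Mllt3, a fusion partner of MLL in leukaemia, by 1.22. Meis2, a homeobox cofactor, rose from 0, 1.80 and 2.04 to 46.4, 44.0 and 56.5. Of 37 myeloid transcription factors, 9 rose and 12 fell: Gata1, Gata2, Cebpe and Id2, an inhibitor of basic helix-loop-helix factors, were among the rises and Maf, Klf4 and Irf8 among the falls.

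The 12 largest rises and the 12 largest falls over all genes, with a mean of at least 100 normalized reads in the higher group, included genes outside the lists. Ablim1, an actin-binding protein, St3gal5, a sialyltransferase, Hmga2, a chromatin protein of fetal stem cells, and Scn3a, a sodium channel, were among the rises. Ablim1, Hmga2 and Scn3a were at 0 in all WT libraries and at least 34.7-fold, 29.4-fold and 27.8-fold higher in dKO cells. Lox, lysyl oxidase of the extracellular matrix, had 337, 518 and 186 normalized reads in WT cells and 0 in each dKO library, at least 102-fold lower. Adamts2, a procollagen protease, and Ppic, cyclophilin C, were at 0 in dKO cells and at least 77.8-fold and 64.5-fold lower. Cp, ceruloplasmin, fell from 1226, 1186 and 933 to 0, 1.05 and 0.88, and Pmp22, a membrane protein, from 2703, 2802 and 2348 to 1.13, 7.34 and 9.71.

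The difference between dKO and WT cells was not the same in clones C1 and C2 for 3720 genes (29.4%), 1810 more positive and 1910 more negative in C1. It differed for 23 of these 24 extreme genes (adjusted p from 4.0e-08 to 0.0057), and Hmga2 was the exception (adjusted p = 0.066). The genes were chosen for the size of their change in C1, so a smaller change in C2 was favoured by the choice. Cd34, a sialomucin of stem and progenitor cells, rose more in C2 (difference -3.00, adjusted p = 7.9e-05).

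Genes of chromosome 12 were shifted as a body, a pattern found after the data were seen and given with no test. Among 9029 genes with a mean of at least 100 normalized reads, the median log2 fold change in clone C1 was 0.32 for the 325 genes of chromosome 12 (quartiles 0.13 and 0.51), against -0.09 to 0.08 for the other autosomes and the X chromosome. On chromosome 12, 188 genes rose (57.9%) and 31 fell (9.54%), against 14.2% and 21.8% on the other chromosomes. Relative to the other chromosomes its genes had a median of 0.33 to 0.42 in the 3 dKO C1 libraries, 0.33 to 0.37 in the 3 LAP* libraries and -0.02 to 0.02 in the 3 WT C1 libraries. The medians were 0.02 to 0.04 in WT and -0.11 to -0.03 in dKO cells of clone C2, and all 20-Mb windows of the chromosome had medians between 0.27 and 0.38 in clone C1. Rises on this chromosome, such as those of Rps7 (0.64) and Id2 (1.72), thus stand beside a shift of most of its genes, and Rsad2 fell in spite of it. DNA copy number was not measured, and its part in the shift was not tested. With chromosome 12 left out, 1938 genes rose and 2471 fell in clone C1. Chromosome 15, the highest of the others at 0.08, was shifted to a lesser extent. Its library medians relative to the other chromosomes were 0.06 to 0.15 in dKO C1 cells and 0.19 to 0.25 with LAP*. In WT C1 cells they were -0.02 to 0.01. The part of this shift in the changes of its genes was not tested. In dKO cells of clone C2, chromosome 1 stood 0.45 to 0.51 above the others. Chromosome 10 stood at 0.34 to 0.35, chromosome 8 at 0.10 to 0.23 and chromosome 3 at 0.08 to 0.14. The part of these shifts in the differences between the clones was not tested for any gene. Cd34, Bcl2 and Nrp2, whose effects differed between the clones, lie on chromosome 1. Cd34 and Bcl2 rose more in C2, whereas Nrp2 fell more there, the direction opposite to the shift of that chromosome.

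**Figure D4:**
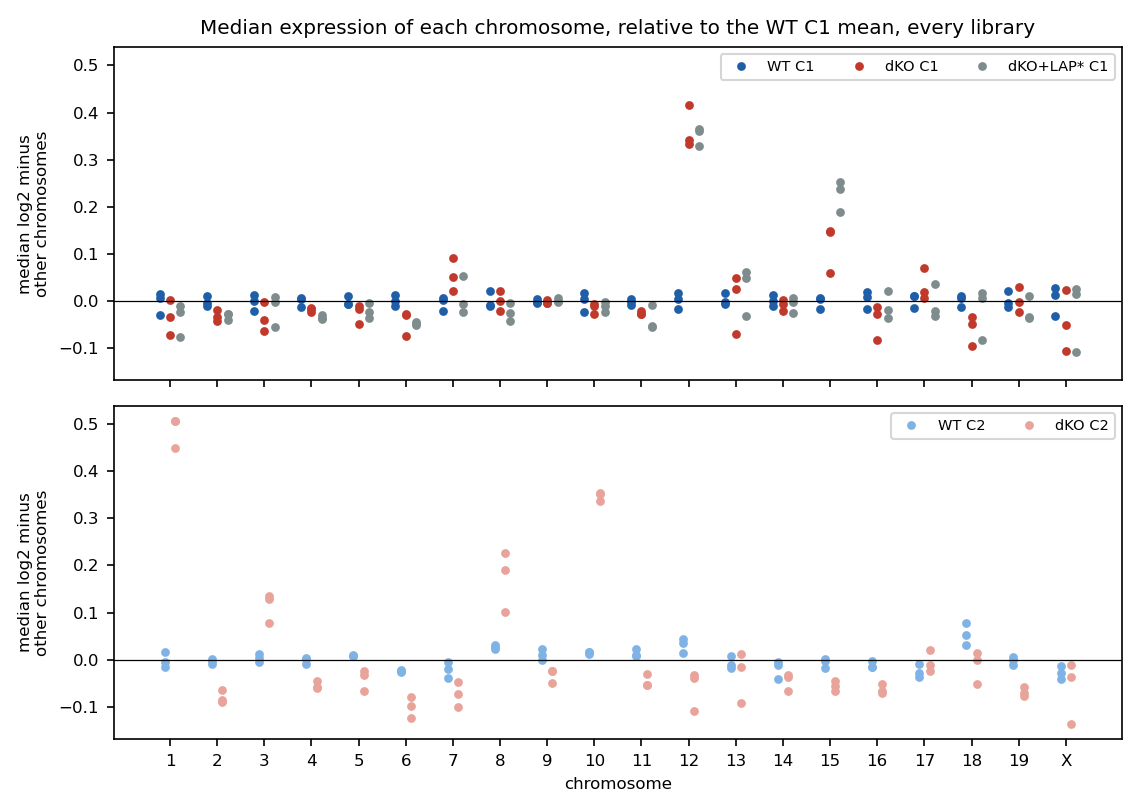
Median log2 expression of the genes of each chromosome relative to the WT C1 mean and to the other chromosomes, 1 point per library, with clone C1 in the upper and clone C2 in the lower panel. Chromosome 12 lies at 0.33 to 0.42 in the dKO C1 libraries and near 0 in WT C1 cells, and in dKO cells of clone C2 chromosomes 1 and 10 lie highest.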

How the data were processed

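RNA from 3 samples per group was sequenced by the authors as stranded, paired-end poly(A) libraries. The submitters' processing notes name STAR 2.5.3a, HTSeq 0.10.0, DESeq2 1.26.0 and mm10; the annotation and the strand setting of the counting are not given in the sources used here, so values of overlapping and antisense genes are uncertain. The values the authors deposited are a signal, read counts per gene divided by DESeq2 size factors, and are called normalized reads. All nonzero values were whole multiples of 1 read (tolerance 0.1, 100% of values), which gave back the read counts. The 5 entries for reads not on genes (22.4% to 25.5% of a library in clone C1) and 3 columns not matched to a sample were left out. Of 26111 genes without a symbol, 26006 were named from GENCODE, which also gave positions (mm10).

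Groups followed the labels. Genes that reached 10 normalized reads in 3 or more of the 15 libraries were tested with limma 3.58.1 (R 4.3.3, trended) on log2(normalized reads + 1) over all 5 groups, with Benjamini-Hochberg adjusted p-values and a threshold of 0.05; fold changes are on this scale, which understates those of low genes. The dKO effect of clone C1 minus that of C2 was tested in the same fit. Folds against groups at 0 used a floor of 3 reads per library, and ratios to groups with 1 to 3 reads in all carry an exact counting interval. On simulated data for this comparison (11556 genes, 200 of them changed), limma called 90.9% of 2-fold and 100% of 4-fold changes and 0.0793% of unchanged genes. These rates belong to the simulation. Whether they hold for the libraries themselves, where WT replicates spread widely for genes such as Ifit1, was not tested.

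The members and gene lists were chosen with earlier results of these data known. Genes were named as the 12 largest called rises and 12 largest called falls without overlap and with a mean of at least 100 normalized reads in the higher group, up to 4 rises and 4 falls per list with a mean of at least 50, and transcription factors and defining markers; further members were named after their values were seen, and chromosome 12 was examined after that. Alternatives were other pseudocounts, no filter, quantile normalization, fits to the groups compared alone, a replicate block, edgeR 4.0.16 and DESeq2 1.42.0 on the recovered counts, and leaving out each library. Some genes are not reported here.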

Additional observations from a re-analysis of the deposited data

Results flagged for a closer look

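The difference between dKO and WT cells was not the same in clones C1 and C2 for 3720 genes by the interaction term in limma (adjusted p under 0.05), and among the 24 genes with the largest changes in clone C1 this held for 23. These 24 genes were chosen for the size of their change in C1, so a smaller change in C2 was favoured by the choice. The values below are the log2 fold change in C1 minus that in C2, and since many of these genes are near 0 in a group of one clone, the fitted differences depend on the pseudocount. Among eosinophil and mast cell genes, the difference was 8.11 for Prg2, 5.0 for Epx, 6.15 for Prg3, 6.61 for Ear6, 7.53 for Ear1 and 2.39 for Cpa3. It was 8.04 for H2-Aa of MHC class II, 3.73 for Ablim1, 7.73 for St3gal5 and 5.42 for Scn3a. Cd34 rose in both clones, with a difference of -3.00. Among the genes that fell in C1, it was -7.53 for Ifit1, -7.08 for Rtp4 and -7.03 for Rsad2 of the interferon-stimulated list, -6.90 for Siglec1, -6.71 for Acod1 and -7.46 for Il1a, which macrophages express, and -8.88 for Bcl11a. It was -7.94 for Cp, -4.06 for Pmp22, -8.32 for Lox, -1.72 for Adamts2 and -3.71 for Ppic.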

How the results depend on the processing

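The 2170 genes higher, 2516 lower and 3720 different between clones stayed within 1.5 times these counts under other pseudocounts, no filter, quantile normalization, fits to the groups compared, edgeR and DESeq2. A minimum change of 2-fold left 778, 971 and 1661 genes. With 1 library left out, 1739 to 2134 genes were higher, 2081 to 2553 lower and 3209 to 3770 different between clones. With the replicate number as a block, 2108, 2449 and 3583 genes were called. Deviations of same-numbered WT and dKO libraries correlated at 0.127, 0.078 and -0.019 across genes, so the numbers were not taken as pairs; WT replicates 1 and 2 correlated best with their own number and WT replicate 3 with number 2. Of 164 tested genes named in the text, 133 were called; 6 of these lost the call under at least 1 of the 8 alternatives, 4 with 1 library left out and 0 under the block, and 5, 6 and 1 genes not called gained one. Genes not called changed sign: with 1 library left out, Mcm2 ranged from -0.074 to 0.045, Mcm4 from -0.0057 to 0.074, Mcm6 from -0.12 to 0.018, Asns from -0.036 to 0.15, Atf4 from -0.21 to 0.019, Junb from -0.11 to 0.18, Tfeb from -0.11 to 0.040, Lcn2 ranged from -0.077 (without WT replicate 3) to 0.42, Mki67 from -0.31 to 0.056 (without WT replicate 3), Myc from -0.14 to 0.045 (without WT replicate 1) and Spi1 from -0.090 to 0.012 (without dKO replicate 1). Myc was at 0.0073 without WT replicate 2, at 0.026 without dKO replicate 3 and at 0.090 with quantile normalization, which put Spi1 at 0.095, Atf4 at 0.0028, Mcm2 at 0.11, Mcm6 at 0.038, Pcna at 0.0033 and Tfeb at 0.016. Of the lists whose counts moved by over 1.5 times and are not given so above, the fit to the groups compared alone left 8 cell cycle, 7 unfolded protein response and 4 glycolysis genes that fell and 7 ribosomal protein and 3 Wnt genes that rose; it left 1 rise each among p53 targets, heme and iron genes and amino acid stress genes and 1 fall each among DNA methylation and insulin-like growth factor genes. Quantile normalization gave 4 rises among p53 targets, 3 among fatty acid synthesis and 3 among unfolded protein response genes, 5 among Polycomb genes, 1 among lipid genes, and 2 rises and 2 falls in oxidative phosphorylation. Without the filter 8 ribosomal protein genes rose and 1 Notch gene fell, with a pseudocount of 0.1 it was 1 Notch and 3 chemokine receptor genes that fell, and with edgeR 11 glycolysis genes fell. DESeq2 gave 2 rises each among cell cycle and macrophage genes and 1 each in oxidative phosphorylation and fatty acid synthesis; a pseudocount of 5 and the block also gave 2 macrophage rises, and the block gave 2 falls each in sterol synthesis and the pentose phosphate list and 2 rises in fatty acid synthesis. With a pseudocount of 5 the median of the mast cell and basophil list was 2.17 and that of MHC class II 3.04, and DESeq2 gave 4.19 for the eosinophil list. The median of the erythroid list was -0.23 without WT replicate 3 and that of the dendritic list -0.13 without dKO replicate 1. The cause of these changes was not tested. Depth limits genes under about 10 normalized reads.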

Other observations

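Lymphoid genes outside the B cell list moved in both directions. Of 5 T and NK cell genes tested, 3 rose and 1 fell in dKO cells of clone C1. Nkg7, a granule protein of cytotoxic lymphocytes, had a log2 fold change of 3.13 and Thy1, a surface glycoprotein of T cells, one of -2.81. The defining gene Cd3e was at 0 in all 6 libraries. Of 5 erythroid genes tested, 2 rose and 1 fell (2 without WT replicate 2), and the globin genes Hba-a1 and Hba-a2 were at 0 in all 6 libraries. Hbb-bt, another globin gene, was at 0 in WT cells and at 6.80, 6.29 and 7.94 normalized reads in dKO cells, and was not tested.

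Of 18 Fc and ITAM receptor genes, 3 rose and 8 fell (5 rose without WT replicate 2), and of 14 genes of the HoxA cluster and its cofactors, 2 rose and 4 fell. The number of the latter that fell was 1 without WT replicate 2 or dKO replicate 3, and 2 without WT replicate 1 or dKO replicate 2, and it was also 2 with no filter, quantile normalization, the replicate block, edgeR and DESeq2. Of 32 ribosome biogenesis genes, 1 rose (2 without WT replicate 3 and 3 with quantile normalization) and 3 fell in clone C1, while 15 rose and 0 fell in clone C2, and the effect differed between the clones for 13, of which 12 were more negative in C1. Of 16 cell cycle inhibitors and D cyclins, 2 rose and 4 fell (4 and 3 with quantile normalization), and of 7 pentose phosphate genes, 2 rose and 1 fell (3 without dKO replicate 1, and 2 without WT replicate 2 or WT replicate 3). Of 8 genes of the insulin-like growth factor axis, 3 rose and 2 fell (1 without WT replicate 1, WT replicate 2 or dKO replicate 1). Of 7 NADPH oxidase genes, 2 rose and 2 fell. The summed level of 10 endothelial and stromal markers was 312 to 584 normalized reads in WT and 429 to 467 in dKO libraries of clone C1.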
